A study of Drosophila melanogaster with 78 samples.

Results

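Polysome-enriched RNA was sequenced from fat bodies of 10-day-old female Drosophila melanogaster, in 3 libraries of dilp 2-3,5 mutants and 3 libraries of wDah, the wild-type they were set against. These 6 libraries were chosen by their labels and are the polysome part of a series of 78 libraries, in which the remaining 72 hold total RNA of several tissues at ages of 10, 30 and 50 days. dilp 2-3,5 flies lack 3 genes for insulin-like peptides in every cell of the body, and wDah (white Dahomey) is the outbred stock, carrying Wolbachia, into which the mutations had been backcrossed. Fat body means the female abdomen after gut and ovaries were taken out, so muscle, hemocytes and other abdominal cells were still in the samples. For the polysome fraction, the study spun lysates through a sucrose gradient with translation stopped by cycloheximide. Each library is a biological replicate of its genotype, and the question is which circular RNAs and which linear host transcripts differed between the mutants and wDah in RNA of the polysome fraction. Whether each RNA in this fraction was bound by ribosomes was not tested. Total RNA of fat bodies of the same genotypes and age, again 3 libraries each, is in the same tables and was used where stated.

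Circular RNAs (circRNAs) form when a splice donor is joined to an acceptor upstream of it, so that the exons between them close into a ring with no free ends. A read over this backsplice junction belongs to the circle, and a read spliced from the same positions to a neighbouring exon belongs to a linear transcript of the host gene. Most circRNAs are thought not to be translated, but a circle that holds a start codon can in principle be read by ribosomes, and sedimentation with polysomes is one of the ways to look for such circles. The fat body is the fly's counterpart of liver and adipose tissue, stores lipid and glycogen, makes yolk proteins, and is a main target of the insulin-like peptides. Lower insulin signaling lets the transcription factor foxo enter the nucleus.

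The table held 206 circRNAs from 167 host gene names, with up to 5 circRNAs in 1 gene and several in 30 of them. Of these, 203 ran from exon to exon, 201 were flanked by the AG and GT dinucleotides of spliced exons, and for 190 both ends were exon ends of 1 annotated transcript. Their median genomic span was 984 bases and their median spliced length 789 bases. An annotated start codon of the host gene lay in the exon chain of 85 circRNAs. Reading from it, a stop codon came only after the backsplice junction in 76 of the 85, before the junction in 1, and was not met in 12 turns around the circle in 8. These are properties of the annotated sequence and no measure of translation.

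The junctions of the circRNAs on which the results below turn are shown because the join itself is what a circular read has to cross. The lower-case letters are the last 15 bases of the circle's 3′ end (the donor side), and the capitals are the first 15 bases of its 5′ end (the acceptor side), from the RefSeq release 6 genome in BDGP6 coordinates, in the direction of transcription. Both ends of each circle are annotated exon ends of its host gene.
circSfl (chr3L:6523030-6524096, + strand): gggcgtgtttaatggATAAGAGGACGACCC
circCaMKI of 3 exons (chr4:449924-450509, + strand): catcgtgatcttaagGTTCAGTGCAAATCA
circCaMKI of 2 exons (chr4:450242-450509, + strand): catcgtgatcttaagGTTAACTCATCCAAA
circPdk1 (chr3L:135458-136335, + strand): gccgcgagtatgcaaATCAACGGTACACAG
circCrzR (chr3L:12347194-12348139, - strand): ctcagcttgccacagCTTATTTATCCAACC
circCG3961 (chr3L:18887061-18887746, - strand): tcgccattgctagagGCTATCTTCTGTAGG
circGlut4EF (chr3R:9943481-9943894, + strand): gagcgcaagaaaaagTTCCCGGAAACGTCC
circDbp80 (chr3L:27331994-27332346, + strand): cattcgaatacacaaGTTCTGTGTTTATCC
circSfl is a single exon of 1067 bases that holds the start codon of sfl 596 bases before the junction. The frame from this start codon has 199 codons, the last of which crosses the junction, and then meets the TAA within the first 4 capitals of its line. The 2 circCaMKI forms share their donor side and start codon and differ in the acceptor exon, with spliced lengths of 259 and 214 bases and frames of 77 and 62 codons. circPdk1 has 2 exons and 754 bases with a frame of 207 codons, circCrzR 1 exon and 946 bases with 263 codons, circCG3961 349 bases with 83 codons, and circDbp80 293 bases with 105 codons. The exon chain of circGlut4EF (325 bases) holds no annotated start codon.

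The polysome libraries were shallow for circles. They held 2059, 1795 and 1254 circular reads in dilp 2-3,5 and 1019, 1287 and 1080 in wDah, over 179 to 188 and 176 to 185 detected circRNAs, and the median circRNA had 12 reads summed over the dilp 2-3,5 libraries and 9 over the wDah libraries. Every circRNA had a read in dilp 2-3,5 and 204 had one in wDah; the other 2, of CG5946 and 7SLRNA:CR42652, had 6 and 1 circular reads over the dilp 2-3,5 libraries and none in wDah. Set against a floor of 3 reads over the wDah group, the share of circCG5946 in dilp 2-3,5 was 1.33-fold that floor. The 7SL value lies under the floor. The 1.33-fold value takes the 6 mutant reads as exact, and these circRNAs were picked because wDah had no reads. It is therefore no lower limit of a difference, and neither circRNA reached the minimum of 10 reads for the main test. Only 111 circRNAs were seen in all 6 libraries, and 27 had fewer than 10 circular reads in total and were not tested for circular reads.

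Linear reads at the same positions numbered 98198, 84408 and 90221 in dilp 2-3,5, against 64309, 71158 and 82282 in wDah. Linear counts crowded below about 7934, the highest value in any polysome library. There were 7 rows, among them the yolk proteins and 7SL RNA, that passed 7000 in at least 1 library. Raw differences at these rows are compressed, and scaling such counts to libraries of unequal size can itself give a difference. Linear counts of wDah library 3 correlated at 0.987 with dilp 2-3,5 library 3 (r over 206 rows on the log2 scale). With wDah libraries 1 and 2 they correlated at 0.976 and 0.974. By a smaller margin, wDah library 1 was also closer to dilp 2-3,5 library 1 (0.9785) than to wDah libraries 2 and 3 (0.9777 and 0.9757). In circular reads wDah libraries 1, 2 and 3 each correlated best with a dilp 2-3,5 library, at 0.677, 0.663 and 0.739. Among themselves the wDah libraries correlated at 0.580 to 0.641 in circular reads. Reads of the U3 small nucleolar RNA, which belongs to the nucleolus, were 7569, 3325 and 1319 in dilp 2-3,5 and 2471, 3115 and 930 in wDah, with the lowest value of each genotype in library 3. For some results the value without wDah library 3 is given beside the main value, and for some of these also the value without dilp 2-3,5 library 3.

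Markers were checked in the study's pooled FPKM of total RNA (fragments scaled to transcript length and sequencing depth, 1 value per genotype with no error). Ilp3 and Ilp5 were listed at 0 in dilp 2-3,5 fat body and at 0.0665 and 0.114 in wDah, and Ilp2 at 0 in both, since these peptides are made by brain cells; in pooled brain RNA Ilp2, Ilp3 and Ilp5 had 0.580, 0.0601 and 0.168 FPKM in dilp 2-3,5 and 388, 59.4 and 62.9 in wDah. Fat body markers were high in both genotypes (summed FPKM 41538 in dilp 2-3,5 and 36965 in wDah over 7 genes), with Yp1 listed at 0 in wDah although its linear reads in wDah polysomes were 7155, 6258 and 5990. Gut markers, 10 digestive proteases, summed to 194 FPKM in dilp 2-3,5 and to 5063 in wDah, each of the 10 being lower in the mutant. Summed values were 875 and 722 for 13 muscle genes, 40.02 and 23.1 for 7 neuronal genes, 154 and 111 for 5 hemocyte genes, and 72.1 and 120 for 5 ovarian genes, with dilp 2-3,5 given first. The neuronal sum rested on Syt1 (29.3 FPKM in dilp 2-3,5 and 13.2 in wDah), and 5 of the 7 neuronal genes were lower in dilp 2-3,5, as were 4 of the 13 muscle genes, none of the hemocyte genes and all 5 ovarian genes. No gut, hemocyte or ovary marker has a row in the polysome tables, and the part of gut remnants in the polysome comparison was not tested. The 1 muscle marker with a row, tn, had 4, 0 and 2 circular reads in dilp 2-3,5 and 5, 6 and 3 in wDah, and 26, 29 and 35 linear reads in dilp 2-3,5 and 17, 21 and 34 in wDah; neither passed (adjusted p = 0.824 and 0.975). The 1 neuronal marker with a row, Sap47, had 15, 12 and 22 linear reads in dilp 2-3,5 and 9, 19 and 26 in wDah (adjusted p = 0.712). In tissue samples fewer cells of a type and less RNA per cell cannot be told apart.

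**Figure D1:**
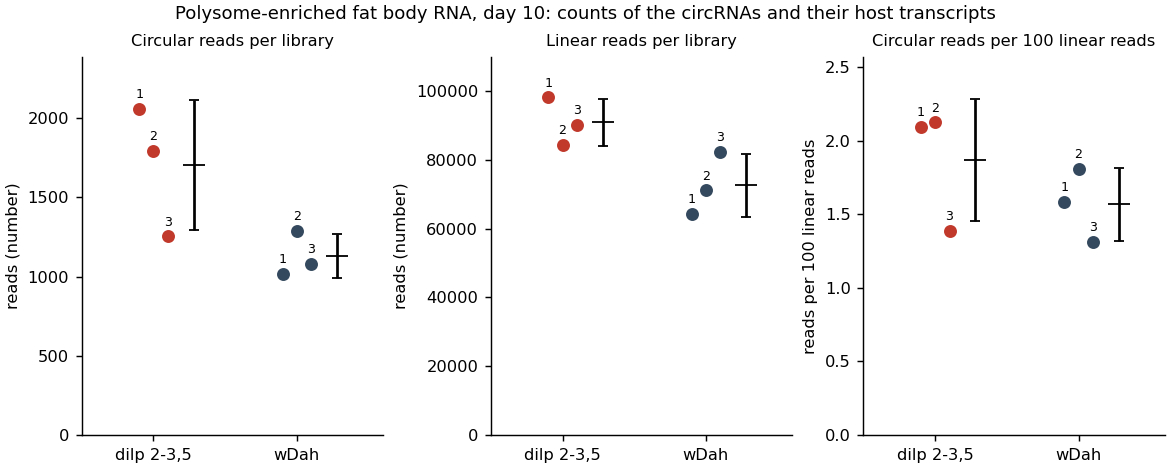
Circular reads, linear reads and circular reads per 100 linear reads in each polysome library (points, numbered by replicate), with the mean and SD of the 3 libraries of each genotype in black. Both library counts sit higher in dilp 2-3,5 on average, and the 2 genotypes overlap in circular reads and in circular reads per 100 linear reads, where library 3 is the lowest of each genotype.

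The first comparison asked whether circles as a whole were more or less abundant beside linear transcripts in polysomes of the mutant. Summed over all 206 circRNAs there were 2.10, 2.13 and 1.39 circular reads per 100 linear reads in dilp 2-3,5 and 1.58, 1.81 and 1.31 in wDah. Library 3 was the lowest in both genotypes and the ranges overlapped. The means were 1.87 ± 0.417 in dilp 2-3,5 and 1.57 ± 0.248 in wDah (SD, n = 3 each), a difference of 0.303 that is within the spread between libraries (two-sided exact permutation test, p = 0.3, where 0.1 is the smallest p that 3 against 3 libraries allow). Without wDah library 3 the difference was 0.174, without dilp 2-3,5 library 3 it was 0.543, and without rows of linear counts over 7000 it was 0.0556. The direction depended on the measure: the median over circRNAs of circular per 100 linear reads was 10.1 ± 2.01 in dilp 2-3,5 and 11.5 ± 3.81 in wDah (p = 0.6, exact permutation test). In total RNA the summed level was 6.47 ± 1.45 in dilp 2-3,5 and 3.67 ± 0.624 in wDah (SD, n = 3 each), with no overlap between the genotypes (exact permutation p = 0.1, the smallest possible). On the log2 scale the genotype difference was 0.24 in polysomes and 0.81 in total RNA, and the difference between these was -0.57. Permuting genotypes within each kind of RNA (400 arrangements) gave an exact p of 0.265. This permutation takes the genotypes as equal in both kinds of RNA. It therefore cannot decide whether the genotype difference was the same in both.

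Next, the level of each circle was compared with circular reads alone, scaled to the circular reads of a library by TMM, a scaling that takes most circRNAs as equal. circSfl was the 1 circRNA of 179 tested that passed an adjusted p of 0.05, a share of 0.559%, and it was higher in dilp 2-3,5. The host gene sulfateless (sfl) encodes the N-deacetylase/N-sulfotransferase that modifies heparan sulfate chains. circSfl had 24, 29 and 34 circular reads in dilp 2-3,5 polysomes, against 5, 2 and 8 in wDah polysomes. Every mutant library was above every wDah library. As a share of a library's circular reads this was 1.17% (95% interval 0.748 to 1.73%), 1.62% (1.08 to 2.31%) and 2.71% (1.88 to 3.77%) in dilp 2-3,5, against 0.491% (0.160 to 1.14%), 0.155% (0.0188 to 0.560%) and 0.741% (0.320 to 1.45%) in wDah. These Clopper-Pearson intervals cover the counting error of reads within a library and not the spread between libraries. Reads without molecular identifiers are also not separate molecules. The log2 fold change was 2.03 ± 0.49 (SE), 4.08-fold, with an adjusted p of 0.00825 (edgeR quasi-likelihood test). Among the 206 circRNAs circSfl ranked 11th by reads in dilp 2-3,5 and 66th in wDah.

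The call for circSfl rested on few reads, 87 in dilp 2-3,5 and 15 in wDah. The log2 fold change stayed between 1.64 and 2.68 when each library was left out in turn, but the adjusted p passed 0.05 only without dilp 2-3,5 library 1 (0.00493) and was 0.158 and 0.256 without dilp 2-3,5 libraries 2 and 3, and 0.119, 0.466 and 0.192 without wDah libraries 1, 2 and 3. Under the 9 other settings it ranged over 0.000643 to 0.176, and it missed 0.05 where circular reads were scaled to linear reads.

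Linear sfl transcripts did not show this difference in polysomes. They had 44, 34 and 46 reads in dilp 2-3,5 and 21, 31 and 36 in wDah, which on the scale of linear reads is a log2 fold change of -0.014 ± 0.24, a sign that changed with the scaling (adjusted p = 0.976). Relative to its own linear transcripts circSfl had 54.5, 85.3 and 73.9 circular reads per 100 linear reads in dilp 2-3,5 and 23.8, 6.45 and 22.2 in wDah. The ranges did not overlap, and the log2 fold change of this ratio was 2.03 ± 0.67, but with 179 circRNAs tested its adjusted p was 0.461 (unadjusted p = 0.00258). Tested among the 74 circRNAs with at least 30 reads of each kind, it passed (adjusted p = 0.0302). Without wDah library 3 the log2 fold change of the ratio was 2.33 (adjusted p = 0.0810), and without dilp 2-3,5 library 3 it was 1.99 (adjusted p = 0.883).

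**Figure D2:**
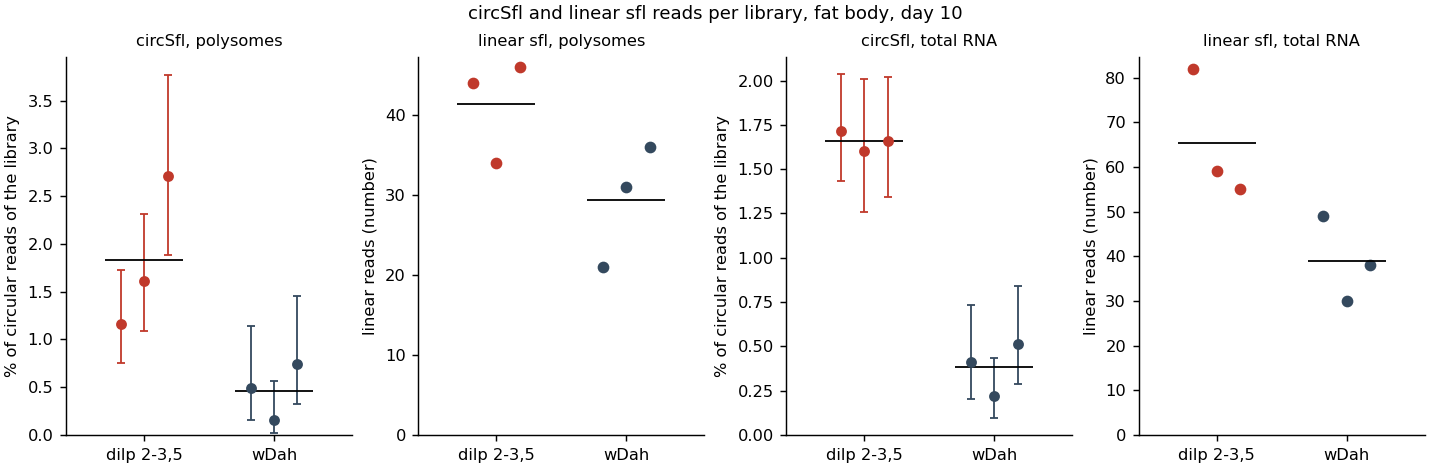
circSfl as a percentage of the circular reads of each library, with 95% Clopper-Pearson intervals for counting error, and the linear sfl reads of the same libraries, in polysomes (left pair of panels) and total RNA (right pair); black lines are means of 3 libraries. circSfl shares of dilp 2-3,5 lie above those of wDah in both kinds of RNA, at 1.17 to 2.71% against 0.155 to 0.741% in polysomes.

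In total RNA of the same tissue and age circSfl had 299 reads over the dilp 2-3,5 libraries and 34 over the wDah libraries, a log2 fold change of 2.27 ± 0.27 (adjusted p = 4.52e-05), 1 of 6 circRNAs that passed there (2.91%), 3 of them higher (1.46%) and 3 lower (1.46%). The genotype difference of circSfl in polysomes minus that in total RNA was 0.0081 ± 0.58 in 1 fit over the 12 libraries (adjusted p = 0.997), with an SE too large to show a small difference. That fit scales the 12 libraries together, so its value is not the difference of the separate fold changes. Linear sfl was higher in dilp 2-3,5 in total RNA (log2 fold change 0.74 ± 0.22, adjusted p = 0.0169). In the same kind of fit over the 12 libraries, its genotype difference in polysomes was lower than in total RNA by 0.86 ± 0.33, with an unadjusted p of 0.0129 and an adjusted p of 0.375.

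The circRNAs next in order of p did not pass the adjusted threshold. circCrzR, from the gene of the corazonin receptor, a G protein-coupled receptor for a stress-related neuropeptide, had 4, 1 and 1 reads in dilp 2-3,5 and 8, 7 and 6 in wDah. circGlut4EF, from the gene of a DNA-binding protein named for a glucose transporter enhancer, had 2, 0 and 3 reads in dilp 2-3,5 and 7, 6 and 6 in wDah. Both were lower in every mutant library, with log2 fold changes of -2.28 ± 0.78 and -2.33 ± 0.83 (adjusted p = 0.307 each). circCG3961, whose host gene is a predicted long-chain acyl-CoA synthetase, had 9, 9 and 5 reads in dilp 2-3,5 and 2, 1 and 0 in wDah, a log2 fold change of 2.28 ± 0.92 (adjusted p = 0.478). circCG13784 had 9, 2 and 5 reads in dilp 2-3,5 and 7, 11 and 11 in wDah (log2 fold change -1.36 ± 0.60, adjusted p = 0.632). These circles differed by a handful of reads per library. circCrzR was also lower in dilp 2-3,5 in total RNA, with 4 reads over the mutant libraries and 34 over the wDah libraries (log2 fold change -3.78 ± 0.58, adjusted p = 0.000719), and there circGlut4EF and circCG3961 did not pass (adjusted p = 0.776 and 0.477). Over all 179 circRNAs, 10 (5.59%) had an unadjusted p under 0.05, 6 of them higher (3.35%) and 4 lower (2.23%) in dilp 2-3,5, and the scaled values of the genotypes did not overlap for 22 (12.3%), 12 of them above (6.7%) and 10 below wDah (5.59%).

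The most read circle of both genotypes came from a kinase gene. circCaMKI of 3 exons, from the gene of calcium/calmodulin-dependent protein kinase I, had 220, 170 and 78 reads in dilp 2-3,5 and 59, 79 and 66 in wDah. It took 8.79 ± 2.31% of circular reads in dilp 2-3,5 and 6.01 ± 0.194% in wDah (SD, n = 3 each). Mutant libraries 1 and 2 were high, and mutant library 3, at 6.22%, was beside the wDah libraries. The log2 fold change was 0.61 ± 0.24 (adjusted p = 0.478), and without dilp 2-3,5 library 3 it was 0.79 with an adjusted p of 0.00399. circCaMKI of 2 exons had 61, 67 and 18 reads in dilp 2-3,5 and 21, 20 and 18 in wDah, and as a share of circular reads mutant library 3 (1.44%) lay below all wDah libraries (1.55 to 2.06%) while mutant libraries 1 and 2 lay above them (log2 fold change 0.71 ± 0.35, adjusted p = 0.806).

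circPkn, from a protein kinase gene, was second in both genotypes, with 114, 99 and 64 reads in dilp 2-3,5 and 39, 72 and 41 in wDah. Its shares of 5.39 ± 0.244% in dilp 2-3,5 and 4.41 ± 1.03% in wDah overlapped (log2 fold change 0.34 ± 0.27, adjusted p = 0.977). circPdk1, whose host kinase phosphorylates Akt in the insulin pathway, had 55, 47 and 30 reads in dilp 2-3,5 and 24, 36 and 36 in wDah, and its shares were 2.56 ± 0.148% in dilp 2-3,5 and 2.83 ± 0.490% in wDah (log2 fold change -0.087 ± 0.33, adjusted p = 0.994). The other circles among the 5 most read of a genotype were those of Eps-15, an endocytic adaptor, of Wbp2, and of Dbp80, a DEAD-box RNA helicase. circEps-15 had 65, 45 and 36 reads in dilp 2-3,5 and 30, 26 and 16 in wDah, and circWbp2 had 50, 63 and 22 in dilp 2-3,5 and 28, 37 and 28 in wDah. Their log2 fold changes of 0.48 ± 0.34 and -0.028 ± 0.33 did not pass (adjusted p = 0.892 and 0.994), and the sign of circPdk1 and circWbp2 changed with the read minimum and the libraries used. The 5 most read circles together took 23.1% of circular reads in dilp 2-3,5 and 18.2% in wDah.

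circDbp80 had 48, 62 and 32 reads in dilp 2-3,5 and 16, 29 and 13 in wDah, and after scaling its mutant libraries all lay above those of wDah. Its log2 fold change was 0.76 ± 0.35 in polysomes (adjusted p = 0.702) and -0.42 ± 0.19 in total RNA (adjusted p = 0.244). In 1 fit that scales the 12 libraries together, its genotype difference in polysomes was higher than in total RNA by 1.44 ± 0.38. This value is not the difference of the separate fold changes. It was the first in order of p among 206 circRNAs (adjusted p = 0.0627). No circRNA passed this test of the difference. For this test 11 had an unadjusted p under 0.05 (5.34%), 7 of them higher (3.4%) and 4 lower (1.94%) in polysomes. Without dilp 2-3,5 polysome library 3, wDah polysome library 2 or wDah total RNA library 2, left out singly, 1 circRNA passed.

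**Figure D3:**
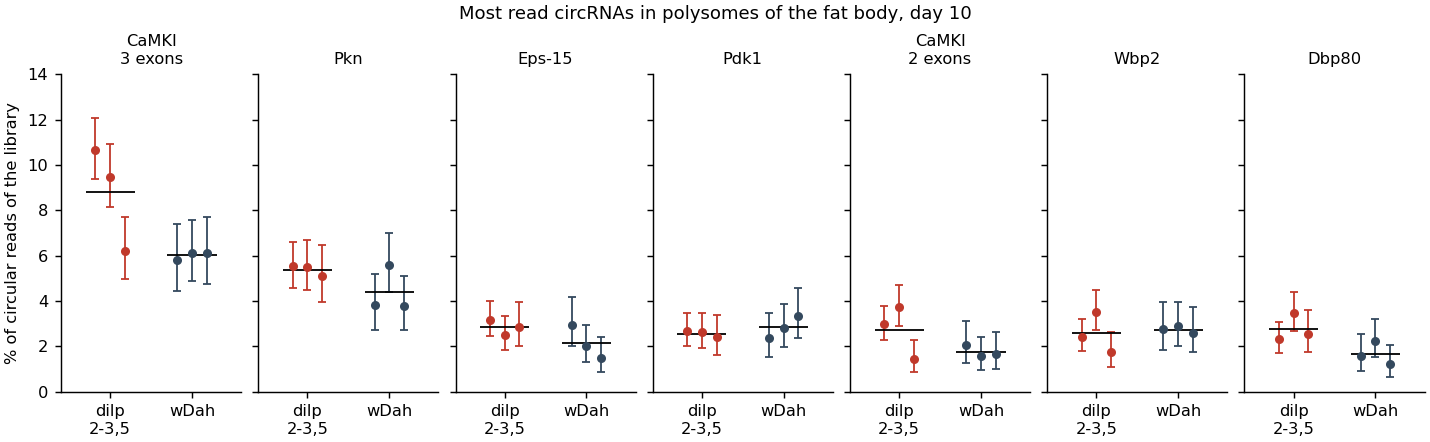
The 7 circRNAs that were among the 5 most read of either genotype, as a percentage of the circular reads of each polysome library, with 95% Clopper-Pearson intervals for counting error and means in black. circCaMKI of 3 exons is the highest throughout, with 2 of the 3 dilp 2-3,5 libraries above and 1 beside the wDah libraries; none of these circRNAs passed the test.

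Some circles outnumbered the linear reads spliced at the same positions. Summed over libraries this held for 7 circRNAs in dilp 2-3,5 and 7 in wDah, 3 of them shared, out of 206; those named here were picked after their values were seen. circMbl, from the gene of the splicing factor muscleblind, had 52 circular and 22 linear reads in dilp 2-3,5 and 46 circular and 15 linear reads in wDah. circBsg25D (43 circular and 31 linear reads in dilp 2-3,5, 42 and 31 in wDah) and circLaccase2 (76 and 74 in dilp 2-3,5, 38 and 33 in wDah) were the others that did so in both genotypes. circEps-15 (146 circular and 103 linear reads in dilp 2-3,5, 72 and 79 in wDah) was above its linear reads in dilp 2-3,5 only by these sums, a difference that did not pass the ratio test (log2 fold change 0.63 ± 0.60, adjusted p = 0.973).

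Circular reads were then set against the linear reads of the own host in the same library, so that a change of the host transcript as a whole drops out. No circRNA of 179 passed (0.0% in either direction), 5 had an unadjusted p under 0.05 (2.79%), 2 of them higher (1.12%) and 3 lower (1.68%), and DESeq2 called none, with 4 at an unadjusted p under 0.05. Without wDah library 3, 13 had an unadjusted p under 0.05 and again none passed. Without dilp 2-3,5 library 3, 5 had an unadjusted p under 0.05 and none passed. After circSfl, the first in order of p were circCrzR, with a log2 fold change of -2.41 ± 0.87 (adjusted p = 0.499), circCG3961 (2.12 ± 0.94), circCG32698 (-2.30 ± 1.16), circTango13 (-2.08 ± 1.05) and circGlut4EF (-1.74 ± 0.89), the last 4 with an adjusted p of 0.973. The value of circCrzR was -2.90 without wDah library 3 (adjusted p = 0.0810) and -2.03 without dilp 2-3,5 library 3 (adjusted p = 0.995). Linear reads of CrzR were 27, 31 and 33 in dilp 2-3,5 and 14, 15 and 31 in wDah, and those of CG3961 were 48, 47 and 48 in dilp 2-3,5 and 25, 32 and 34 in wDah. On the linear scale neither gene passed (log2 fold changes 0.12 and 0.13, adjusted p = 0.975 each). circCG32698 had 0, 1 and 1 circular reads in dilp 2-3,5 and 5, 0 and 3 in wDah, and circTango13, of a gene annotated as the tyrosylprotein sulfotransferase Tpst, had 0, 2 and 1 in dilp 2-3,5 and 2, 5 and 3 in wDah. The ratio of circCaMKI of 3 exons was 33.0, 32.6 and 10.5 circular reads per 100 linear reads in dilp 2-3,5 and 24.7, 23.0 and 8.86 in wDah, so that library 3 of each genotype lay far below the others. Its log2 fold change was 0.41, -0.062 without wDah library 3 and 0.93 without dilp 2-3,5 library 3. The median log2 fold change of the ratio over the 179 was -0.077, and it was -0.33 without wDah library 3 and 0.20 without wDah library 2, so its sign rested on single libraries. The groups did not overlap for 15 (8.38%), 7 above (3.91%) and 8 below wDah (4.47%). In total RNA 19 of 206 circRNAs passed the same test (9.22%), 18 of them higher (8.74%) and 1 lower (0.485%) in dilp 2-3,5.

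**Figure D4:**
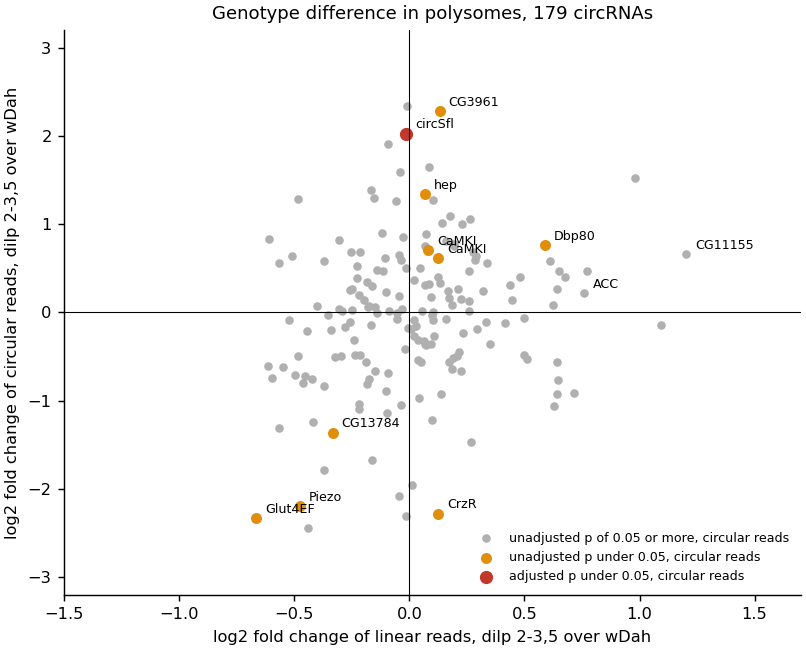
log2 fold changes of dilp 2-3,5 over wDah in polysomes for linear reads (horizontal) and circular reads (vertical) of the 179 circRNAs tested for circular reads, each point 1 circRNA. circSfl is the 1 circRNA past an adjusted p of 0.05, at 2.03 for circular and -0.014 for linear reads; orange points have an unadjusted p under 0.05 only, and the named grey points are hosts first in order of p for linear reads.

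For the linear reads of the host transcripts, all 206 rows were tested and none passed (0.0%), by edgeR or by DESeq2, with 15 at an unadjusted p under 0.05 by either tool (7.28%), 11 of them higher (5.34%) and 4 lower (1.94%) in dilp 2-3,5 by edgeR. These fits used no replicate block. With the replicate number as a block 6 rows passed in edgeR, among them CG11155, ACC at 3 exons and both Dbp80 rows (adjusted p = 0.0442 each). The values below are from the main fit without the block. The first in order of p was CG11155, a predicted ionotropic glutamate receptor, with 34, 25 and 32 linear reads in dilp 2-3,5 and 9, 4 and 15 in wDah (log2 fold change 1.20 ± 0.33, adjusted p = 0.300). ACC, the acetyl-CoA carboxylase that begins fatty acid synthesis, had 2015, 1630 and 1706 linear reads in dilp 2-3,5, against 462, 651 and 1202 in wDah. All mutant libraries were higher, with wDah library 3 the nearest to them, and the log2 fold change was 0.76 ± 0.26 (adjusted p = 0.474). Dbp80 had 70, 57 and 80 linear reads at the junction shown above in dilp 2-3,5 and 26, 28 and 43 in wDah (0.59 ± 0.22), and at a second pair of positions 93, 54 and 73 in dilp 2-3,5 and 25, 27 and 50 in wDah (0.61 ± 0.22). pio, whose protein belongs to the apical extracellular matrix (17, 27 and 20 in dilp 2-3,5, 7, 5 and 11 in wDah) and Parp, the poly(ADP-ribose) polymerase (13, 15 and 14 in dilp 2-3,5, 0, 4 and 10 in wDah), completed the first 6, with log2 fold changes of 0.98 ± 0.36 and 1.09 ± 0.45. The last 5 values share an adjusted p of 0.474. The value of Parp was 0.65 without wDah library 1 and 1.95 without wDah library 3. The scaled linear values of the genotypes did not overlap for 26 of 206 rows (12.6%), 13 in each direction (6.31% each). Without wDah library 3, 24 rows had an unadjusted p under 0.05 and again none passed. Linear reads of CaMKI were 666, 522 and 742 in dilp 2-3,5 and 239, 343 and 745 in wDah, the highest value being that of wDah library 3.

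Reading the linear results against total RNA, 30 of 206 rows passed there (14.6%), 16 of them higher (7.77%) and 14 lower (6.8%) in dilp 2-3,5. No row passed the test of the difference between polysomes and total RNA, for which 19 had an unadjusted p under 0.05 (9.22%), 6 of them higher (2.91%) and 13 lower (6.31%) in polysomes. Without dilp 2-3,5 total RNA library 2, 2 rows passed. The first was Wbp2, whose genotype difference in polysomes was lower than in total RNA by 1.19 ± 0.37 (adjusted p = 0.375).

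Genes of known pathways were followed as lists, which were chosen with earlier results of these data known. The insulin signaling list had 6 circRNAs of 5 of its 14 genes, those of Pdk1, foxo, Sesn, rl and sgg, and none passed for circular or linear reads. The median log2 fold change of its circular reads was -0.085, beside 0.018 over all 179, and of its linear reads 0.029, beside -0.0011 over all 206. The more read circle of foxo, which encodes the transcription factor held back by insulin signaling, had the lowest fold change of the list with 14, 11 and 7 reads in dilp 2-3,5 and 14, 11 and 7 in wDah (log2 fold change -0.54 ± 0.52, adjusted p = 0.978). Equal raw counts give a negative fold change here because the mutant libraries held more circular reads.

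Lipid storage and transport genes had 12 circRNAs of 9 of 17 genes, none of which passed in either direction in the main fits, with medians of 0.0094 for circular and 0.098 for linear reads, beside 0.018 and -0.0011 over all circRNAs. For linear reads 4 of its 12 rows, those of ACC and LpR2, had an unadjusted p under 0.05, beside 15 of 206 over all rows, and 5 of the 12 did not overlap between genotypes, 2 above and 3 below wDah, beside 26 of 206. The rows of ACC share an end, as do those of LpR2, so they are not separate measurements. The list was not chosen blind to these data, and the counts are no test of the group. Linear reads of LpR2, a lipophorin receptor, were 626, 498 and 518 in dilp 2-3,5 and 319, 653 and 735 in wDah at the positions of its more read circle. After scaling, each mutant library lay below the wDah libraries (log2 fold change -0.55 ± 0.24, adjusted p = 0.474), and in total RNA LpR2 was lower in dilp 2-3,5 (-0.74 ± 0.16, adjusted p = 0.000193). ACC, named above, ran the other way. Linear reads of Acsl, an acyl-CoA synthetase, at the positions of its more read circle were 2484, 1919 and 2174 in dilp 2-3,5 and 866, 1432 and 2146 in wDah (0.097 ± 0.27), and those of bmm, the lipase brummer, were 67, 98 and 139 in dilp 2-3,5 and 42, 27 and 137 in wDah (0.17 ± 0.30).

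Protein kinases had 13 circRNAs of 10 of 13 genes, of which 11 were tested for circular reads. None passed, beside 1 of 179 over all circRNAs, 7 of the 11 had a positive fold change, beside 92 of 179, and the median was 0.34, beside 0.018. An unadjusted p under 0.05 was met by 3 of the 11, both circCaMKI forms and a hep circle, beside 10 of 179. The circCaMKI forms share their donor side, and the list was not chosen blind to these data, so the counts are no test of the group. The largest fold change was that of a circle of hep, the kinase that activates JNK, with 13, 7 and 13 reads in dilp 2-3,5 and 2, 1 and 6 in wDah (log2 fold change 1.34 ± 0.66, adjusted p = 0.806), while a second hep circle had 7, 6 and 8 in dilp 2-3,5 and 6, 16 and 5 in wDah (-0.83 ± 0.58, adjusted p = 0.879). Transcription factor genes had 20 circRNAs of 16 of 24 genes, 17 of them tested, with none passing, beside 1 of 179. Genotypes did not overlap for 2 of the 17, both below wDah, beside 22 of 179. Fold changes were positive for 5 of the 17, beside 92 of 179, with a median of -0.21, beside 0.018. The lowest was circEcR, from the ecdysone receptor gene, with 1, 0 and 1 reads in dilp 2-3,5 and 3, 4 and 2 in wDah (-2.44 ± 1.31, adjusted p = 0.824).

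The 3 yolk protein genes and some rows of the noncoding RNA genes had linear counts near the ceiling. No row of either list passed for circular or linear reads. Median log2 fold changes of yolk protein rows were -0.68 for circular reads (2 tested) and -0.60 for linear reads. Raw linear reads summed over the yolk genes were 23215, 21611 and 20440 in dilp 2-3,5 and 22338, 21148 and 20201 in wDah. Per 1000 scaled linear reads they were 217, 240 and 209 in dilp 2-3,5 and 461, 336 and 206 in wDah. The negative linear value thus arises with the scaling of counts near the ceiling, and wDah library 3 lay below every mutant library. circYp1, with 12, 26 and 28 reads in dilp 2-3,5 and 14, 15 and 43 in wDah, is named by the files, but its ends are not exon ends of the annotation. The noncoding list (7SL RNA, Uhg3 and U3, 6 rows) had medians of 0.83 for circular reads (4 tested) and -0.17 for linear reads, where its rows ran from -0.61 to 0.67; its 7SL rows are near-identical copies whose reads the counting could have split, and their values are uncertain.

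**Figure D5:**
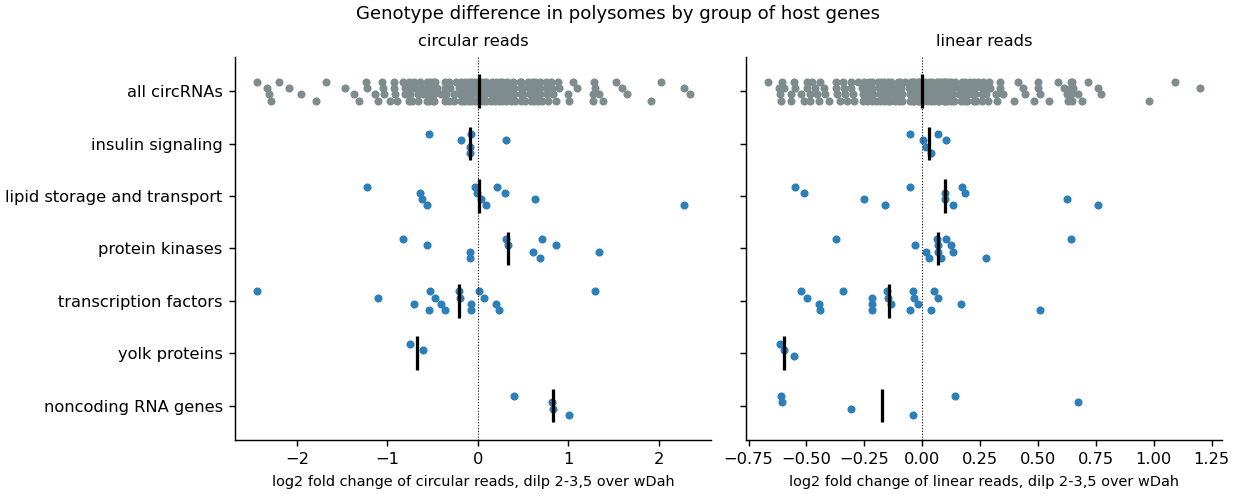
log2 fold changes of dilp 2-3,5 over wDah in polysomes by list of host genes, for circular reads (left) and linear reads (right). Each point is 1 circRNA row and black bars are medians. The yolk protein rows lie below 0 in both panels, and their linear counts were near the ceiling. The 4 noncoding rows tested for circular reads lie above 0, and the other lists hold rows on both sides of 0. No listed row passed an adjusted p of 0.05 in the main fits.

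Finally, circles were sorted by whether their exon chain holds an annotated start codon of the host. The 85 circRNAs with one took 45.2, 48.5 and 41.9% of circular reads in dilp 2-3,5 and 45.0, 40.7 and 42.5% in wDah. The genotypes overlapped, with means of 45.2 ± 3.29% in dilp 2-3,5 and 42.8 ± 2.18% in wDah (SD, n = 3 each). Of the 73 such circRNAs tested, 1 passed, circSfl, and the median log2 fold change was 0.018, beside 0.0065 for the 93 tested circRNAs with a chain but no start codon, of which none passed. The class depends on the annotation: circPkn was sorted among those without a start codon, although the study names it among circles that include one. Of the summed circular reads circPkn held 5.42% in dilp 2-3,5 and 4.49% in wDah.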

How the data were processed

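The authors aligned single-end reads of rRNA-depleted libraries with STAR 2.5.2b (genome BDGP6), and DCC gave the deposited counts, which are not normalized and hold circular and linear reads of each circRNA. Each listed circRNA had at least 5 circular reads in at least 3 of its 12 libraries. Deposited FPKM (HISAT2 2.0.4, StringTie 1.3.0, Cufflinks and Cuffdiff 2.2.1) are pooled per group. The deposited tables of the authors' own tests hold p-values and were not used, except for the authors' totals of circular reads.

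Groups came from the labels. Counts were tested with the quasi-likelihood test of edgeR 4.0.16 (R 4.3.3) at a minimum of 10 reads over the 6 libraries, scaled by TMM. For circular against linear reads, both counts of a library entered 1 fit with a term per library. The Benjamini-Hochberg threshold was an adjusted p of 0.05 over all circRNAs tested. The interaction of genotype and fraction used 12 libraries. Single values were tested by exact permutation. Alternatives were DESeq2 1.42.0, other read minimums, scalings, a replicate block, leaving out libraries and leaving out rows with linear counts over 7000. Named are the circRNAs first in order of p (up to 12 that passed, otherwise 6), those of sfl, CaMKI, Pkn and Pdk1, the 5 most read per genotype, and members of the lists; members and lists were chosen with earlier results of these data known. Markers came from FPKM. In data simulated from the polysome counts of 206 circRNAs with 4-fold changes and a dispersion of 0.05, the fits recovered 61.0% of changed circRNAs for circular reads, 39.0% for the ratio and 95.7% for linear reads. False calls over 10 draws numbered 5, 5 and 24. The dispersion was set for both kinds of reads and not estimated from these libraries, so these shares are not the power of the real tests. Exon chains came from Ensembl gene models and bases from RefSeq, both of BDGP6. Replicates of a genotype differed by more than counting noise (chi-square per degree of freedom 1.43 to 2.88 for circular reads and 11.7 to 44.5 for linear reads), so none was counted as a repeat of another.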

Additional observations from a re-analysis of the deposited data

How the results depend on the processing

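Of 489 values of single circRNAs under other settings, 449 kept their direction and their side of the threshold. With at least 30 reads 1 circRNA passed the ratio test (circSfl), and scaling circular reads to linear reads left 0 called for circular reads; the cause was not tested. Scaling to the study's totals of circular reads, an alternative chosen after seeing the data, left 1 called. Leaving out 1 library gave 0 to 1 calls for circular reads, 0 to 1 for the difference between polysomes and total RNA in circular reads, 0 to 2 in linear reads, and a difference of 0.174 to 0.543 in the summed circular reads per 100 linear reads, which was -1.35 by the median over circRNAs. The median log2 fold change of the ratio ran from -0.33 to 0.20 over these fits. Some log2 fold changes near 0 changed sign. Without each library in turn the ratio ranged over -0.062 to 0.93 for circCaMKI of 3 exons, -0.27 to 0.65 for circDbp80, -0.39 to 0.19 for circPdk1, -0.16 to 0.65 for circPkn and -0.12 to 0.71 for circWbp2, circular reads over -0.22 to 0.15 for circPdk1 and -0.16 to 0.16 for circWbp2, and linear reads over -0.053 to 0.33 for CaMKI at 3 exons, -0.093 to 0.26 at 2 exons, -0.093 to 0.11 for Pdk1 and -0.15 to 0.088 for sfl. Without a read minimum circular reads gave 0.0078 for circPdk1 and 0.071 for circWbp2, and 1 fit over 12 libraries gave 0.027 for circWbp2. Linear reads of sfl gave 0.0075 with DESeq2 and 0.17 scaled by sums without TMM, and those of Eps-15 0.055; that scaling moved the median over all rows from -0.0011 to 0.19.

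Whether replicate numbers pair the samples cannot be told from these values. Deviations of same-numbered libraries correlated at 0.0965, 0.0509 and 0.251 for circular reads and 0.286, 0.0334 and 0.412 for linear reads. In linear reads each dilp 2-3,5 library correlated best with its own number, but wDah library 2 correlated better with dilp 2-3,5 library 1 (0.119). In circular reads dilp 2-3,5 library 1 correlated better with wDah library 2 (0.157). The main tests used no replicate block. With the replicate number as a block the calls were 1 for circular reads (circSfl, adjusted p = 0.000643), 0 for the ratio, 6 for linear reads, among them CG11155, ACC at 3 exons and both Dbp80 rows (adjusted p = 0.0442 each), 1 for the difference between polysomes and total RNA in circular reads and 0 in linear reads. The median circRNA had 12 reads over the dilp 2-3,5 libraries and 9 over the wDah libraries, and the power for changes under 4-fold was not tested.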
